A study of Mus musculus with 39 samples.

Results

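Dapl1, Ugt2b34, Pdyn, Prom1, Tat, Taar1, Pcp4 and Dpp10 are 8 genes that stood lower in islets of Pdx1-creLate mice than in islets of control littermates, out of 19938 genes measured on 39 arrays. They were chosen by that difference, so their levels in Pdx1-creLate and control islets are given here as a description and were not tested. The other groups, from pregnancy and after birth, are not part of that difference and were tested. The genes were chosen with earlier results of these data known, so these tests may not be wholly independent of the choice. Each gene was read by 1 probe set that carries its symbol alone. The genes lie on 6 chromosomes: Dapl1 (2:59484653-59505020) and Pdyn (2:129686549-129699938), Ugt2b34 (5:86889770-86906937) and Prom1 (5:43993621-44102047), Tat (8:109986078-109999804), Taar1 (10:23920406-23921404), Pcp4 (16:96467606-96525793) and Dpp10 (1:123332138-124845815), all in GRCm38.

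RNA of isolated pancreatic islets was hybridized to Affymetrix Mouse Gene 1.0 ST arrays, and the values are log2 expression levels, so that a difference of 1 is a doubling of signal. The Pdx1-creLate mice (4 arrays) and their wild type littermates, called controls (4 arrays), were of backcross generation N8 and not pregnant. Pdx1-creLate is a Cre line driven by a Pdx1 promoter fragment in beta cells, and the construct is known to include a minigene of human growth hormone. The other 8 groups were wild type C57bl6/J mice: 4 arrays each of non-pregnant mice, of mice at pregnancy days 6.5, 9.5, 12.5, 15.5 and 18.5 and of mice 10 days post partum, and 3 arrays of pregnancy day 3.5. The labels call the non-pregnant C57bl6/J mice female, and give no sex for the Pdx1-creLate and control mice and no age for any group. Xist, the RNA of the inactive X chromosome, read 3.8 to 5.0 in Pdx1-creLate and control arrays. It read 9.7 to 10.5 in C57bl6/J arrays. The Y-linked genes Uty, Eif2s3y and Kdm5d read 7.6 to 8.4, 7.1 to 8.0 and 6.3 to 6.9 in Pdx1-creLate and control arrays. In C57bl6/J arrays they read 2.9 to 3.4, 2.5 to 2.9 and 3.4 to 4.0. The Pdx1-creLate and control islets thus had the RNA pattern of males, and strain label and sex both separate those sets. The labels call replicates biological and do not say whether islets of several mice were pooled. Values carry 1 decimal, and the array medians lay between 5.8 and 6.0. In RNA from whole islets, fewer cells of a type and less RNA per cell cannot be told apart.

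Islets adapt to pregnancy under placental lactogens and prolactin, which act through the prolactin receptor and the transcription factor STAT5 in beta cells, and growth hormone of human origin also binds that receptor. The 8 genes belong to unrelated families. Pdyn encodes prodynorphin, the precursor of dynorphin peptides that bind the kappa opioid receptor. Taar1 encodes a G protein-coupled receptor for trace amines that is known in beta cells. Tat (tyrosine aminotransferase) catalyses the first step of tyrosine breakdown, and Ugt2b34 belongs to the UDP-glucuronosyltransferases, which conjugate lipophilic compounds. Dpp10 is a dipeptidyl peptidase relative without enzyme activity that serves as an auxiliary subunit of Kv4 potassium channels. Prom1 (prominin 1, CD133) is a glycoprotein of membrane protrusions. Pcp4 encodes a small calmodulin-binding protein, and Dapl1 a small protein related to death-associated protein.

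The promoters of the members were examined for short motifs, and those of the 3 genes with the largest falls are shown because each carries a match. RefSeq windows (GRCm38.p6) from 250 bases before to 50 bases after an annotated start were matched by symbol for 7 of the 8 genes, all but Taar1, which gave 9 windows of 300 bases. The motifs were TTCNNNGAA (the STAT5-type GAS element), TGACGTCA (the cAMP response element), TATAAA (the TATA box), AGAACA (a glucocorticoid receptor element of short form) and GTTAAT (a short form of the HNF1 element), each searched on both strands, and matches are in capitals. No match overlapped a match of another motif.
Dapl1 2:59484403-59484702, plus strand: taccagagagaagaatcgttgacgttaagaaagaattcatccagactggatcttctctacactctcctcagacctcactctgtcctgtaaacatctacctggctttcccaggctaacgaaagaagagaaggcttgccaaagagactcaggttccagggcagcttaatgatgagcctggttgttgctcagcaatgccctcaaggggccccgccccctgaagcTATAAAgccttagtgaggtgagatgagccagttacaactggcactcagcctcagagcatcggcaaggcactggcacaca
Ugt2b34 5:86906888-86907187, minus strand: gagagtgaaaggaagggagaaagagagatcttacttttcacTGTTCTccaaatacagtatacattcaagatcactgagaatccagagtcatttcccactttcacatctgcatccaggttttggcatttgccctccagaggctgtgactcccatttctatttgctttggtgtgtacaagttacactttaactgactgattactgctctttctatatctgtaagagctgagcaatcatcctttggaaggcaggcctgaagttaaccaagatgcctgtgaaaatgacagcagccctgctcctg
Pdyn 2:129698609-129698908, minus strand: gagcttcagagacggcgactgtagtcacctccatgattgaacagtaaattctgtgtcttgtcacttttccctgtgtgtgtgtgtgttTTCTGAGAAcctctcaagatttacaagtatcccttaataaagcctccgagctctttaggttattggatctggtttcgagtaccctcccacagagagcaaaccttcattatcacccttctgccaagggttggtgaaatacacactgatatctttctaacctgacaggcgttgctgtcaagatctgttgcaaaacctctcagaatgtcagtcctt
The Dapl1 window held TATAAA with its first base 29 bases before the start, a motif found in 13.6% of 32851 windows of the same length. The Pdyn window shown held TTCTGAGAA with its first base 163 bases before the start, and 8.3% of all windows held the GAS motif. Another Pdyn window (2:129699889-129700188), which spans the 5' end of the gene at 129699938, held no match to any of the motifs. The Ugt2b34 window held TGTTCT, the other strand of AGAACA, 209 bases before the start. One Prom1 window (5:44094719-44095018) held the same letters 21 bases before its start, and 19.0% of all windows held that motif. No window of the 7 genes held TGACGTCA or GTTAAT, found in 1.79% and 7.1% of all windows. GC content ran from 43.3% in Ugt2b34 to 65.0% in Dpp10 against a median of 52.7% over all windows, and the count of CpG from 0 in Ugt2b34 to 21 in Dpp10 against a median of 7. The matches describe letters in these windows and say nothing of binding.

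Among the signalling genes, Pdyn read 7.0, 7.0, 6.0 and 6.0 on the 4 Pdx1-creLate arrays (replicates 1 to 4) and 8.3, 9.2, 8.6 and 8.6 on the control arrays. Pdx1-creLate replicates 1 and 2 stood a whole log2 unit above replicates 3 and 4, and no transgenic array reached a control array. The difference was −2.18 ± 0.24 (standard error, SE), a level 22.1% of that in controls. Taar1 read 6.2, 6.2, 6.0 and 5.6 in Pdx1-creLate and 8.0, 7.9, 7.5 and 7.8 in controls. All its transgenic values lay below all control values, with a difference of −1.80 ± 0.14 or 28.7% of the control level.

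For the enzymes, Tat read 7.7, 7.3, 6.7 and 6.7 in Pdx1-creLate and 9.2, 8.9, 8.8 and 9.0 in controls. Replicates 1 and 2 were again the higher transgenic arrays, the groups did not overlap, and the difference was −1.88 ± 0.19, or 27.3% of the control level. Ugt2b34 read 7.3, 7.4, 7.1 and 6.7 in Pdx1-creLate and 9.8, 9.7, 9.7 and 9.8 in controls. Its control arrays agreed to within 0.1, and the difference of −2.63 ± 0.13 left 16.2% of the control level.

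For the membrane proteins, Dpp10 read 6.2, 6.2, 6.5 and 6.0 in Pdx1-creLate and 6.9, 7.6, 7.1 and 7.5 in controls. It had the smallest difference of the 8 genes, −1.05 ± 0.15 or 48.3% of the control level, and its closest arrays were 0.4 apart (6.5 and 6.9). Prom1 read 7.0, 6.7, 6.4 and 6.2 in Pdx1-creLate and 8.3, 8.6, 8.5 and 8.5 in controls. The groups were separate, the difference was −1.90 ± 0.15, and 26.8% of the control level was left.

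For the small intracellular proteins, Dapl1 read 5.0, 5.0, 5.3 and 5.1 in Pdx1-creLate and 8.1, 8.3, 8.1 and 8.0 in controls. Its 4 transgenic arrays lay within 0.3 of each other, and the difference of −3.03 ± 0.10 left 12.3% of the control level, 8.14-fold lower. Those transgenic values lay below the array medians of 5.8 to 6.0. The part of background signal in them was not measured, so the percentage describes signal and may not equal the RNA left. Pcp4 read 6.7, 7.2, 6.8 and 6.5 in Pdx1-creLate and 8.8, 8.9, 8.8 and 7.5 in controls. Control replicate 4 stood 1.3 below the other controls and 0.3 above the highest transgenic array. The difference was −1.70 ± 0.25 with that array and −2.03 without it. The same control array read 7.3 for Tph1, the serotonin synthesis enzyme, against 4.5 to 4.6 on the other control arrays and 10.3 to 10.8 on the transgenic arrays, and the part of this in the Pcp4 value was not tested.

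**Figure D1:**
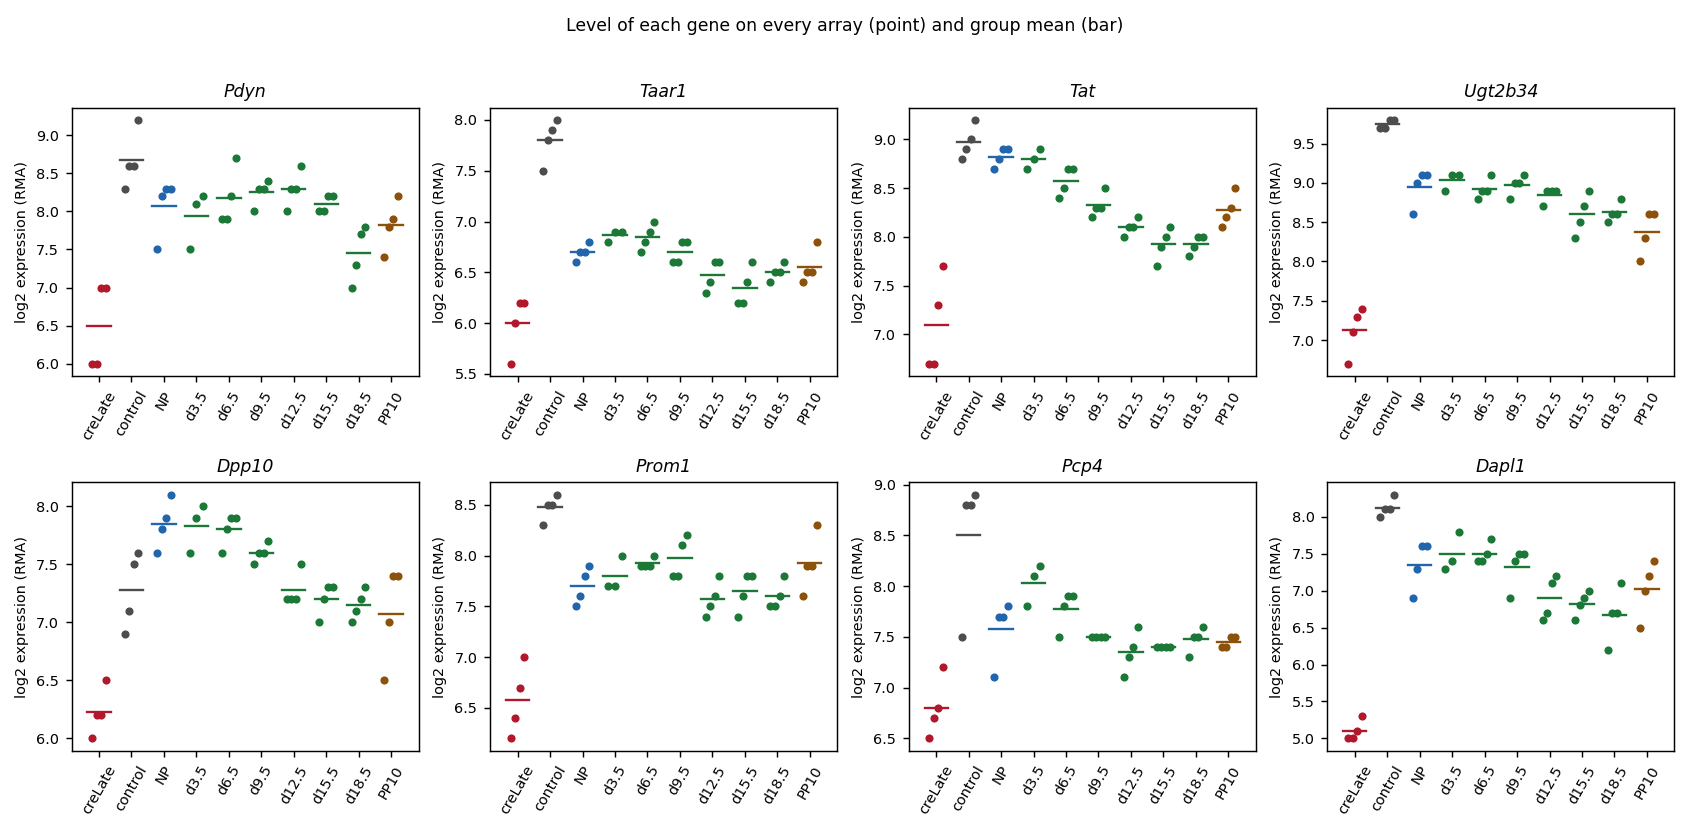
Log2 expression (RMA) of the 8 genes on each of 39 arrays, with points for arrays, bars for group means, and groups from left to right Pdx1-creLate, control, non-pregnant (NP), pregnancy days 3.5 to 18.5 (d3.5 to d18.5) and 10 days post partum (PP10). In all 8 panels the Pdx1-creLate arrays lie below the control arrays, the contrast by which the genes were chosen. Pcp4 has 1 control array at 7.5 apart from the others at 8.8 to 8.9.

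Across the whole table, limma called 742 of 19938 genes (3.72%) lower and 571 (2.86%) higher in Pdx1-creLate at an adjusted p under 0.05. The 8 genes were chosen by this contrast, and nothing is read from their place in it. By size of fall they stood at ranks 1 (Dapl1), 2 (Ugt2b34), 3 (Pdyn), 4 (Prom1), 5 (Tat), 9 (Taar1), 10 (Pcp4) and 58 (Dpp10) among those 742. The median difference of the 8 was −1.89 against −0.03 over all genes, as the choice required. Of 60 called falls at least as large as that of Dpp10, 52 were other genes. The largest of these were Hapln1, Tnr and Vsnl1, each −1.85 and thus between Tat and Taar1 in size, followed by Pappa2 (−1.68), Zim1 (−1.63), Fads2, Kcnh5, Pcdh15 and Pgf (each −1.60) and Nt5dc2 (−1.58). For each of these named genes too, all Pdx1-creLate arrays lay below all control arrays, so such separation is not particular to the 8.

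Markers of islet cell types moved beside these differences. The mean of 3 markers of pancreatic polypeptide cells was 10.4 to 11.1 in Pdx1-creLate arrays and 11.5 to 11.6 in controls, with 3 of 3 called lower. The mean of 4 measured alpha-cell markers was 10.4 to 10.7 against 10.95 to 11.3 (2 of 4 lower), that of 9 beta-cell markers 11.1 against 11.4 as group means (4 of 9 lower), and that of 4 delta-cell markers 8.5 to 9.0 against 8.9 to 9.2 (1 of 4 lower). None of 13 acinar, 7 duct, 7 endothelial or 5 glial and neuronal markers was called, 1 of 6 macrophage markers was higher, and 1 of 7 stellate-cell markers was lower. The acinar mean spanned 8.7 to 10.3 within Pdx1-creLate and 8.5 to 9.6 within controls, and replicates 1 and 2, the higher transgenic arrays for Pdyn, Prom1 and Tat, had acinar means of 10.3 and 9.95 against 9.22 and 8.73. The part of these markers in the differences was not tested.

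Over mid-pregnancy, the mean of days 9.5, 12.5 and 15.5 against non-pregnant islets, limma called 503 genes (2.52%) lower and 1340 (6.72%) higher, and of the 8 genes Tat and Dpp10 were lower and none was higher. The median difference of the 8 was −0.18 against −0.01 over all genes. Every comparison with non-pregnant islets below shares the same 4 non-pregnant arrays, so the days are not independent of each other. At single days 0 of the 8 were called at day 3.5 (background 0.0251% lower) and at day 6.5 (0.12%), where 1 gene each had an unadjusted p under 0.05. The counts of lower genes were 1 at day 9.5 (background 7.74%), 2 at day 12.5 (1.19%), 3 at day 15.5 (4.53%) and 4 at day 18.5 (2.5%). No gene of the 8 was called higher at any day. Of all 19938 genes, 4 were called higher at day 3.5, 100 at day 6.5 and 2321 at day 9.5. The counts were 813 at day 12.5, 737 at day 15.5 and 1712 at day 18.5. With 8 genes, nothing is read from the lack of higher calls. Differences from non-pregnant islets were below 0 for 7 of the 8 at days 12.5 and 15.5 and for 8 of 8 at day 18.5, called or not. These counts take in small uncalled differences, such as −0.05 for Prom1 at day 15.5. How many of all genes lay below 0 was not read beside them, so no joint fall of the 8 is drawn from these signs.

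Tat was lower from day 9.5 on. It read 8.9, 8.9, 8.7 and 8.8 in non-pregnant islets, 8.3, 8.2, 8.3 and 8.5 at day 9.5, 8.1, 8.2, 8.0 and 8.1 at day 12.5, 7.9, 7.7, 8.1 and 8.0 at day 15.5 and 7.9, 7.8, 8.0 and 8.0 at day 18.5. From day 9.5 on no pregnant array reached a non-pregnant array, whereas days 3.5 (8.7 to 8.9) and 6.5 (8.4 to 8.7) overlapped or touched that range. The differences were −0.50 ± 0.09 at day 9.5 (limma, adjusted p = 0.000232), −0.73 ± 0.09 at day 12.5 (adjusted p = 1.34e-06), −0.90 ± 0.09 at day 15.5 (adjusted p = 1.89e-08) and −0.90 ± 0.09 at day 18.5 (adjusted p = 1.12e-08), with −0.71 ± 0.08 over mid-pregnancy (adjusted p = 2.17e-08). At day 18.5 the level was 53.6% of the non-pregnant level. These calls held under all alternatives tried, left-out arrays included. With each array's SD over all genes as a covariate, an alternative added after seeing the data, day 6.5 was called too (−0.29, adjusted p = 0.0446).

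Dpp10 was lower from day 12.5 on. It read 7.9, 8.1, 7.8 and 7.6 in non-pregnant islets, 7.6, 7.7, 7.6 and 7.5 at day 9.5, 7.2, 7.2, 7.2 and 7.5 at day 12.5, 7.3, 7.0, 7.2 and 7.3 at day 15.5 and 7.3, 7.1, 7.2 and 7.0 at day 18.5. The groups no longer overlapped from day 12.5 on, and 1 day 12.5 array (replicate 4) was above the other arrays of its day. The differences were −0.25 ± 0.14 at day 9.5 (adjusted p = 0.185), −0.58 ± 0.14 at day 12.5 (adjusted p = 0.00693), −0.65 ± 0.14 at day 15.5 (adjusted p = 0.0018) and −0.70 ± 0.14 at day 18.5 (adjusted p = 0.000548), with −0.49 ± 0.11 over mid-pregnancy (adjusted p = 0.00266). The 3 single-day calls and the mid-pregnancy call held under all alternatives tried.

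Dapl1 read 7.6, 7.6, 7.3 and 6.9 in non-pregnant islets, 6.6, 6.8, 6.9 and 7.0 at day 15.5 and 7.1, 6.2, 6.7 and 6.7 at day 18.5. The ranges overlapped through non-pregnant replicate 4 and day 18.5 replicate 1. The difference was −0.68 ± 0.18 at day 18.5 (adjusted p = 0.0134) and −0.53 ± 0.18 at day 15.5 (adjusted p = 0.0745). The day 18.5 call ended without non-pregnant replicate 1 (−0.59, adjusted p = 0.0502) or 2 (−0.59, adjusted p = 0.0541) or without day 18.5 replicate 2 (−0.52, adjusted p = 0.066). Without non-pregnant replicate 4 the day 15.5 difference was −0.68 (adjusted p = 0.0201), and with array weights it was −0.58 (adjusted p = 0.0215). With the array SD as a covariate Dapl1 was also called lower at mid-pregnancy (−0.49, adjusted p = 0.0106) and at day 12.5 (−0.58, adjusted p = 0.0171).

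Pdyn was called lower at day 18.5 and at no earlier day. It read 8.3, 8.2, 8.3 and 7.5 in non-pregnant islets, 8.3, 8.3, 8.0 and 8.6 at day 12.5, 8.0, 8.2, 8.0 and 8.2 at day 15.5 and 7.8, 7.0, 7.3 and 7.7 at day 18.5. Each day 18.5 array was below each day 15.5 array, but non-pregnant replicate 4 at 7.5 lay within the day 18.5 range. The day 18.5 difference was −0.63 ± 0.19 (adjusted p = 0.032), and the intervals at the other days included 0, for instance from −0.35 to 0.40 at day 15.5. The call ended without non-pregnant replicate 1, 2 or 3 (−0.55, −0.58 and −0.55, adjusted p = 0.0895, 0.0776 and 0.0955) and without day 18.5 replicate 2 or 3 (−0.48 and −0.58, adjusted p = 0.117 and 0.0896). It also ended with all 39 arrays in 1 model (adjusted p = 0.0689), with only the groups compared (adjusted p = 0.0687) and with eBayes' trend and robust options (adjusted p = 0.0635).

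Taar1 read 6.8, 6.7, 6.6 and 6.7 in non-pregnant islets, 6.9, 6.8 and 6.9 at day 3.5, 6.4, 6.2, 6.6 and 6.2 at day 15.5 and 6.4, 6.5, 6.6 and 6.5 at day 18.5. Day 15.5 and non-pregnant arrays met at 6.6. The day 15.5 difference was −0.35 ± 0.09 (adjusted p = 0.0151), and at day 18.5 it was −0.20 ± 0.09 (adjusted p = 0.175). The day 15.5 call ended without non-pregnant replicate 1 (−0.32, adjusted p = 0.0616), without day 15.5 replicate 2 or 4 (−0.30 in both, adjusted p = 0.0668 and 0.0665), with centring on array medians (−0.30, adjusted p = 0.095) and with only the groups compared (adjusted p = 0.0587). With the array SD as a covariate Taar1 was called lower at mid-pregnancy (−0.24, adjusted p = 0.0341).

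Ugt2b34, Prom1 and Pcp4 were not called at any pregnancy day as fitted, but were under some alternatives. Ugt2b34 read 9.1, 9.0, 9.1 and 8.6 in non-pregnant islets, 8.7, 8.5, 8.3 and 8.9 at day 15.5 and 8.6, 8.6, 8.5 and 8.8 at day 18.5, with differences of −0.35 (95% interval −0.59 to −0.11, adjusted p = 0.0776) and −0.33 (−0.57 to −0.08, adjusted p = 0.087). Without non-pregnant replicate 4 both were called (−0.47 and −0.44, adjusted p = 0.0142 and 0.023), and day 15.5 also without day 15.5 replicate 4 (−0.45, adjusted p = 0.0269). Both were also called with array weights (−0.39 and −0.40, adjusted p = 0.0272 and 0.0161). Day 18.5 was further called with quantile normalization (−0.46, adjusted p = 0.00695) and with the array SD as a covariate (−0.55, adjusted p = 0.00627). Prom1 differed by no more than 0.28 in either direction from the non-pregnant mean of 7.70 at any day, but was called at day 18.5 with the array SD as a covariate (−0.38, adjusted p = 0.0371). Pcp4 read 7.8, 7.7, 7.7 and 7.1 in non-pregnant islets and 8.1, 8.2 and 7.8 at day 3.5, a difference of 0.46 (0.21 to 0.70, adjusted p = 0.0802), and then 7.4 on all 4 arrays at day 15.5. Without non-pregnant replicate 1 the day 3.5 difference of Pcp4 was 0.53 (adjusted p = 0.0486), and without non-pregnant replicate 4 Pcp4 was lower at mid-pregnancy (−0.32, adjusted p = 0.0166), day 12.5 (−0.38, adjusted p = 0.0205) and day 15.5 (−0.33, adjusted p = 0.0325).

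Limma's F-test of a difference at any of the 6 days called all 8 genes, where 39.8% of all genes were called. That of a difference among the 6 days, which uses no non-pregnant array, also called all 8, against 38.6% of all genes. In the test among days the adjusted p was 3.72e-08 for Tat, 0.000276 for Taar1, 0.000339 for Dpp10, 0.000498 for Pcp4, 0.00141 for Dapl1, 0.00771 for Pdyn, 0.0211 for Ugt2b34 and 0.0252 for Prom1. Pcp4 and Taar1 thus changed among days with their highest means at day 3.5 (8.03 and 6.87) and their lowest at day 12.5 for Pcp4 (7.35) and day 15.5 for Taar1 (6.35). Among days, the Prom1 call ended without day 9.5 replicate 2 (adjusted p = 0.0535) or 4 (adjusted p = 0.0636) and with median centring (adjusted p = 0.0524). That of Ugt2b34 ended without day 15.5 replicate 3 (adjusted p = 0.0505) and with the acinar marker mean as a covariate (adjusted p = 0.064). In the any-day test Prom1 (adjusted p = 0.0355) was lost with median centring (adjusted p = 0.0628), with all 39 arrays in 1 model (adjusted p = 0.0652) and without day 6.5 replicate 3, day 9.5 replicate 2 or 4, day 12.5 replicate 3 or 4 or day 18.5 replicate 2 or 3 (adjusted p = 0.051 to 0.0885). There Ugt2b34 (adjusted p = 0.0233) was lost with median centring (adjusted p = 0.0519), with the acinar marker mean as a covariate (adjusted p = 0.0618) and without day 15.5 replicate 2 or 3 (adjusted p = 0.0544 and 0.0577), and Pdyn (adjusted p = 0.0117) without day 18.5 replicate 2 (adjusted p = 0.0706).

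**Figure D2:**
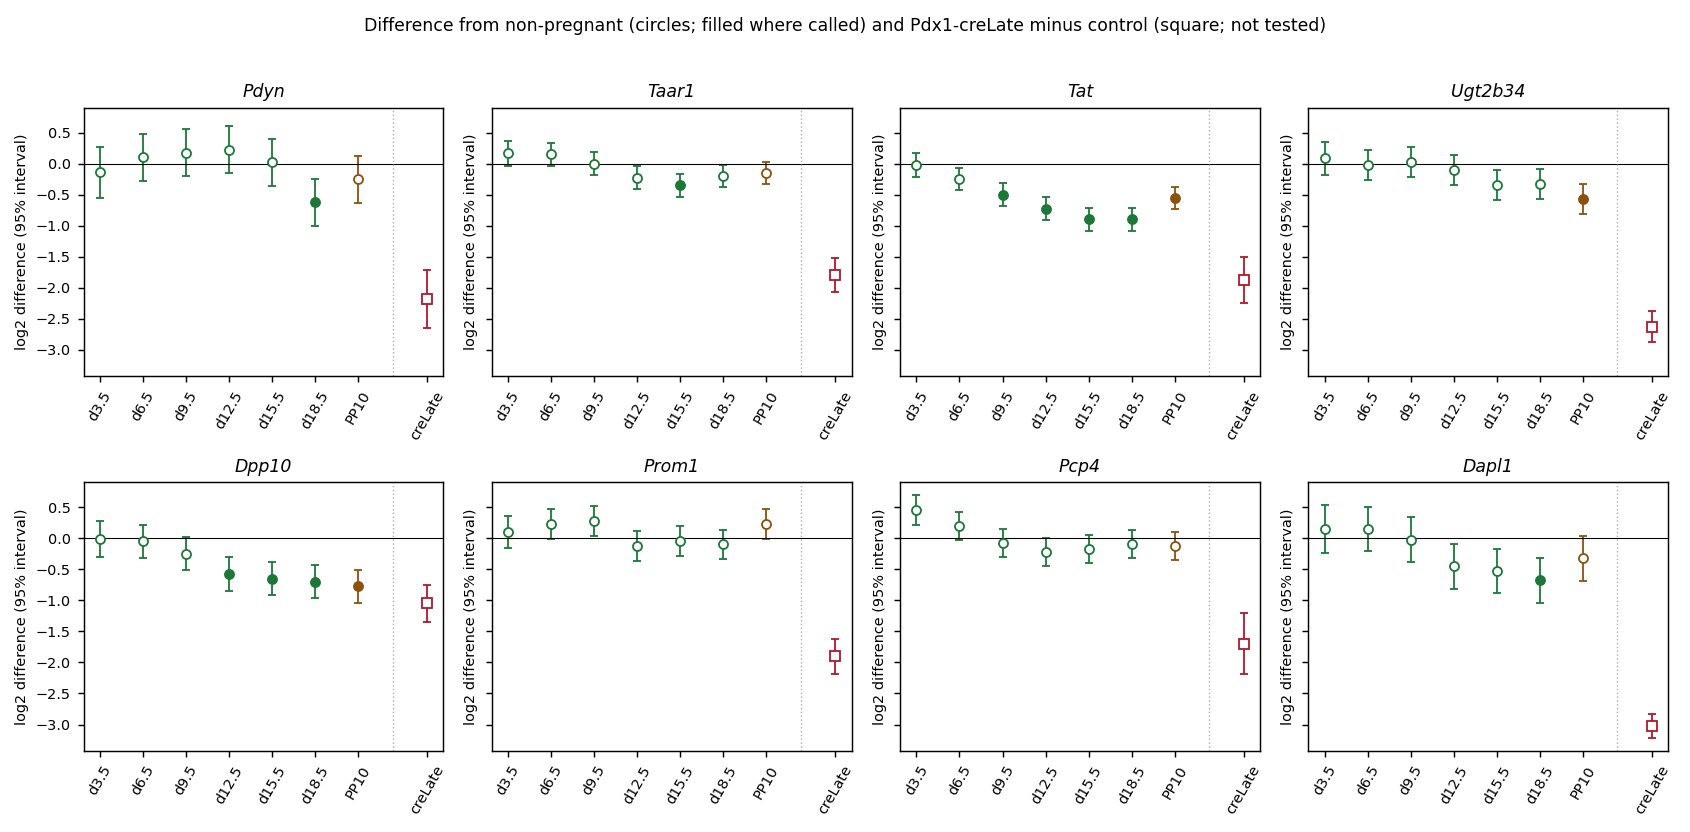
Log2 difference with its 95% interval for each gene, as circles for each pregnancy day and 10 days post partum (PP10) against non-pregnant islets, filled where limma called it, and as a red open square for Pdx1-creLate against control, which was not tested. Tat falls to −0.90 by day 15.5 and Dpp10 to −0.70 by day 18.5, whereas the 95% intervals of Prom1 and Pcp4 at day 18.5 include 0. The intervals use the normal distribution and are narrower than those by limma's t distribution.

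At mid-pregnancy, of 9 beta-cell markers 3 were called higher and 1 lower, and 1 of 4 alpha-cell markers, 1 of 3 pancreatic polypeptide-cell markers and 0 of 4 delta-cell markers were lower. The alpha-cell mean was 11.1 to 11.6 over non-pregnant arrays and 11.1 to 11.2 at day 18.5, and the pancreatic polypeptide-cell mean was 11.2 to 11.8 and 11.2 to 11.4. The acinar mean varied most, with a group mean of 7.18 at day 3.5 and 9.80 at day 6.5. With the acinar mean as a covariate, the single-day calls of Tat, Dpp10, Dapl1, Pdyn and Taar1 were kept, and both F-test calls of Ugt2b34 were lost (adjusted p = 0.0618 and 0.064). The part of the other markers was not tested.

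At 10 days post partum Ugt2b34, Tat and Dpp10 were lower than in non-pregnant islets, 3 of the 8 against 7.78% of all genes, and none was higher (background 4.46%). Ugt2b34 read 8.3, 8.0, 8.6 and 8.6, a difference of −0.58 ± 0.12 (limma, adjusted p = 0.00203), with its highest post partum array (8.6) equal to the lowest non-pregnant array. Tat read 8.2, 8.3, 8.5 and 8.1 (−0.55 ± 0.09, adjusted p = 0.000114), below every non-pregnant array. Dpp10 read 7.4, 7.0, 7.4 and 6.5 (−0.78 ± 0.14, adjusted p = 0.000227), also below every non-pregnant array, with replicate 4 lowest. These 3 calls held under all alternatives tried. The other 5 genes had differences from −0.33 (Dapl1) to 0.23 (Prom1). With the array SD as a covariate Prom1 was 0.44 higher post partum (adjusted p = 0.00623). Marker means also differed between these groups. Each post partum array lay below each non-pregnant array for the pancreatic polypeptide-cell mean (11.07 to 11.13 against 11.2 to 11.8), the endothelial mean (7.71 to 7.80 against 7.91 to 8.10) and the stellate-cell mean (6.26 to 6.46 against 6.50 to 6.86). The ranges overlapped for the beta-cell (11.3 to 11.5 against 11.1 to 11.4), alpha-cell (11.025 to 11.3 against 11.1 to 11.6), delta-cell (9.03 to 9.25 against 9.20 to 9.63) and acinar means (8.35 to 10.1 against 7.88 to 9.68). The calls were kept with the acinar mean as a covariate, and the part of the other markers was not tested.

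From day 18.5 to 10 days post partum, Tat rose by 0.35 ± 0.09 (adjusted p = 0.00689) and Prom1 by 0.33 ± 0.12 (adjusted p = 0.0436), 2 of 8 where 11.8% of all genes were called higher. All post partum Tat arrays (8.1 to 8.5) lay above all day 18.5 arrays (7.8 to 8.0). Prom1 read 7.9, 7.9, 8.3 and 7.6 after birth and 7.8, 7.5, 7.5 and 7.6 at day 18.5, and the ranges overlapped. The Prom1 call ended without day 18.5 replicate 2, 3 or 4 (adjusted p = 0.0896, 0.105 and 0.0827) or post partum replicate 1, 2 or 3 (adjusted p = 0.0671, 0.07 and 0.183), with differences from 0.20 to 0.33, and in 3 other settings. Dapl1, 0.35 higher (adjusted p = 0.138), was called without post partum replicate 4 (0.53, adjusted p = 0.0457), and Ugt2b34 was called lower with array weights (−0.30, adjusted p = 0.0443). The spread of the arrays differed across birth: the SD over all genes was 1.85 to 1.91 at day 18.5 and 1.73 to 1.82 post partum. With that SD as a covariate, chosen after seeing the data, the differences were 0.68 for Tat and 0.81 for Prom1, and of all genes 12 in place of 6014 were called.

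Over the 10 groups, the Pdx1-creLate mean was the lowest for all 8 genes, and the control mean the highest for 7 of them. Choosing genes by the gap between Pdx1-creLate and control favours this order. It was not read for other genes, and nothing particular to the 8 is drawn from it. Dpp10 had its highest mean in non-pregnant islets (7.85), with control at 7.28. Pdx1-creLate was separated in range from the next lowest group for Dapl1 (6.68 at day 18.5), Ugt2b34 (8.38 post partum) and Prom1 (7.58 at day 12.5). For Pdyn, Taar1, Pcp4 and Dpp10 its range met that of the next lowest group. For Tat, whose next lowest means were 7.93 at days 15.5 and 18.5, Pdx1-creLate replicate 1 and the lowest day 15.5 array both read 7.7, and the day 18.5 arrays (7.8 to 8.0) lay above. Among the C57bl6/J groups, neighbours in these orders overlapped in range for all 8 genes. Controls lay above all C57bl6/J arrays for Dapl1, Ugt2b34 and Taar1.

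Control littermates and non-pregnant C57bl6/J mice were both wild type but not matched for sex. The control islets had the RNA pattern of males, and the non-pregnant C57bl6/J mice were female. Control islets were higher by 1.10 for Taar1, 0.93 for Pcp4, 0.80 for Ugt2b34 and 0.78 for Dapl1 and Prom1. They were also higher by 0.60 for Pdyn and 0.15 for Tat, and differed by −0.58 for Dpp10. These differences share the control arrays that chose the genes and were not tested. Over all genes, limma called 2607 higher and 1387 lower in controls than in non-pregnant C57bl6/J islets. Sex, the strain label and the litter cannot be told apart in these differences. The Taar1 level in controls (7.5 to 8.0) stood above that of any other group (highest array 7.0).

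Relatives and partners of the 8 genes were read from 7 lists of 75 other measured genes, chosen with earlier results known. In Pdx1-creLate 4 were higher (5.33%, against 2.86% of all genes) and 4 lower (5.33% against 3.72%). At mid-pregnancy 8 were higher (10.7% against 6.72%) and 3 lower (4.0% against 2.52%), and post partum 7 were higher (9.33% against 4.46%) and 6 lower (8.0% against 7.78%). These counts are a description, and nothing particular to the lists is read from them. In the opioid list (11 measured) 2 genes were higher and 1 lower in Pdx1-creLate, with a median of −0.05 against −0.03 over all genes. In that comparison Penk, the precursor of enkephalins, moved opposite to Pdyn. It read 7.9, 7.8, 7.3 and 7.3 in Pdx1-creLate and 5.7, 5.6, 5.3 and 5.9 in controls, without overlap, a rise of 1.95 ± 0.15 (limma, adjusted p = 1.23e-06). In C57bl6/J islets Penk rose from a mean of 5.58 in non-pregnant mice by 0.52 ± 0.10 at mid-pregnancy (adjusted p = 0.000806). Post partum it was higher by 0.98 ± 0.13 (adjusted p = 3.35e-06). Its mean was 6.58 at day 18.5, when Pdyn was lowest of the C57bl6/J groups. Pdyn itself was not called at mid-pregnancy (0.14, adjusted p = 0.696) or post partum (−0.25, adjusted p = 0.428). All 3 Penk calls held under all alternatives.

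Pcsk1, a convertase that cuts prohormones, rose by 0.54 ± 0.05 at mid-pregnancy (adjusted p = 7.76e-09) and 0.48 ± 0.07 post partum (adjusted p = 9.32e-06). In Pdx1-creLate its difference was 0.38 ± 0.10 (adjusted p = 0.0464), a call lost without any 1 of Pdx1-creLate replicates 1, 3 or 4 or control replicates 1, 2 or 3 (adjusted p up to 0.136). Scg5, a chaperone of the convertase Pcsk2, was lower in Pdx1-creLate (−0.38 ± 0.09, adjusted p = 0.0197), a call lost without Pdx1-creLate replicate 3 or 4 or control replicate 1 or 3 and with median centring (adjusted p up to 0.0644). Pcsk1n, an inhibitor of Pcsk1, was lower post partum (−0.55 ± 0.10, adjusted p = 0.000542). The list had 2 higher and 0 lower at mid-pregnancy (median 0.03 against −0.01) and 2 higher and 1 lower post partum (median 0.08 against 0.03). Oprk1, the receptor of dynorphin, had differences of 0.08 in both Pdx1-creLate and mid-pregnancy (adjusted p = 0.763 and 0.704).

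The Kv4 and dipeptidyl peptidase list (12 measured) had 2 lower genes in Pdx1-creLate, with a median of −0.20 against −0.03. Dpp6, the closest relative of Dpp10 and like it a Kv4 auxiliary subunit, read 6.7, 6.7, 6.4 and 6.3 in Pdx1-creLate and 7.1, 7.0, 7.0 and 7.0 in controls, without overlap. Its differences were −0.50 in Pdx1-creLate (limma, adjusted p = 0.00894), −0.38 at mid-pregnancy (adjusted p = 9.06e-05) and −0.83 post partum (adjusted p = 1.33e-08), and all 3 calls held under all alternatives. Kcnip4, another Kv4 subunit, was 0.50 lower in Pdx1-creLate, a call lost with the acinar mean as a covariate (adjusted p = 0.0594). At mid-pregnancy the list had 1 higher and 2 lower genes (median −0.08 against −0.01) and post partum 0 and 3 (median −0.09 against 0.03). Dpp4, which cleaves incretin hormones, was 0.27 lower at mid-pregnancy and 0.35 lower post partum. Its mid-pregnancy call was lost without non-pregnant replicate 1 or 3 and with centring (adjusted p up to 0.114), and the post partum call without post partum replicate 4, with only the groups compared and with the array SD as a covariate (adjusted p up to 0.0943). Kcnip1 was 0.26 higher at mid-pregnancy, a call that ended in 14 of 27 alternatives, among them those without non-pregnant replicate 2, 3 or 4 (adjusted p up to 0.304). Dpp8 was 0.23 lower post partum, a call that ended without any 1 of the non-pregnant arrays or of post partum replicates 1, 2 and 4 (adjusted p up to 0.256).

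In tyrosine breakdown (8 measured) 0 genes were called in Pdx1-creLate, with a median of −0.13 against −0.03. While Tat fell at mid-pregnancy, Got1, an aspartate aminotransferase, rose by 0.33 and Pcbd1, which regenerates the cofactor of phenylalanine hydroxylase, by 0.26, 2 higher and 0 lower (median 0.13 against −0.01), and both calls held under all alternatives. Post partum Got1 was 0.30 higher and Gstz1, an isomerase late in the pathway, 0.43 lower (median 0.01 against 0.03). The post partum Got1 call was lost without non-pregnant replicate 4 or post partum replicate 3, with centring and with only the groups compared (adjusted p up to 0.0832). Among 13 measured genes of glucuronidation 0 were called in Pdx1-creLate (median −0.08 against −0.03) and 0 at mid-pregnancy (median −0.03 against −0.01), and 1 was higher post partum, Ugt2b36 by 0.40 (median 0.05 against 0.03), a call lost without non-pregnant replicate 2, 3 or 4 or post partum replicate 1, 2 or 4 and with quantile normalization (adjusted p up to 0.14). Ugt2b1, next to Ugt2b34 in the genome, had a difference of 0.08 in Pdx1-creLate, and the dim relatives of Ugt2b34 read 2.98 (Ugt2b35) to 4.85 (Ugt2b37) there.

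Of 15 genes of the trace amine list 0 were called in Pdx1-creLate (median 0.03 against −0.03). At mid-pregnancy Ddc, the decarboxylase that makes trace amines, dopamine and serotonin, was 0.32 higher, a call that held under all alternatives, and Taar6 was 0.28 lower, a call lost without non-pregnant replicate 4 (adjusted p = 0.053), with a list median of 0.00 against −0.01. Post partum Taar3 was 0.45 higher and Ddc 0.28 higher (median 0.18 against 0.03). Taar3 held under the 18 alternatives in which it was run, the filter on dim genes having left it out, and the Ddc call was lost without non-pregnant replicate 1 or post partum replicate 1, with centring and with only the groups compared (adjusted p up to 0.0818). Dap, the relative of Dapl1, was higher by 0.40 in Pdx1-creLate, 0.38 at mid-pregnancy and 0.25 post partum, while Prom2 was not called. Its mid-pregnancy call held under all alternatives. That in Pdx1-creLate was lost without Pdx1-creLate replicate 1 or 2 or control replicate 1, 3 or 4 and in 4 other settings (adjusted p up to 0.144), and that post partum with centring and with only the groups compared (adjusted p up to 0.0813). Of 14 calmodulin genes, Pcp4l1, the relative of Pcp4, was 0.35 higher and the kinase Camk2d 0.43 lower in Pdx1-creLate, Calm2 was 0.19 higher at mid-pregnancy and Pcp4l1 0.40 lower post partum, and none of these 4 calls held under all alternatives. The Pcp4l1 call in Pdx1-creLate was lost without any 1 of the 8 arrays (adjusted p up to 0.128), that of Camk2d without Pdx1-creLate replicate 3 or 4 or any control array (adjusted p up to 0.151), that of Calm2 without non-pregnant replicate 1, 2 or 4 and in 13 other settings (adjusted p up to 0.33), and that of Pcp4l1 post partum without non-pregnant replicate 1, 2 or 3 or post partum replicate 2 or 4 (adjusted p up to 0.202). The medians of that list were −0.03, 0.02 and −0.11 against −0.03, −0.01 and 0.03 over all genes.

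The 16 nearest measured genes on both sides of the 8 were read as neighbours. In Pdx1-creLate 1 was called lower, Stk35 beside Pdyn (−0.35 ± 0.09, adjusted p = 0.0249), and 1 higher, Igsf5 beside Pcp4. The Stk35 call was lost without Pdx1-creLate replicate 1 or 3 or control replicate 1 or 3 and in 4 other settings (adjusted p up to 0.0953). Igsf5, a junctional adhesion molecule gene that ends 2.03 kb from Pcp4, read 8.3, 8.5, 8.4 and 8.6 in Pdx1-creLate and 7.5, 7.6, 7.6 and 7.8 in controls. It rose by 0.83 ± 0.10 (adjusted p = 8e-05), while Pcp4 was lower on the same arrays. At mid-pregnancy Igsf5 rose by 0.35 ± 0.07 (adjusted p = 0.000763), and both its calls held under all alternatives. Dscam, on the other side of Pcp4, was 0.25 lower at mid-pregnancy (adjusted p = 0.0324), a call lost without non-pregnant replicate 2, 3 or 4 or day 9.5 replicate 4 and in 2 other settings (adjusted p up to 0.128).

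**Figure D3:**
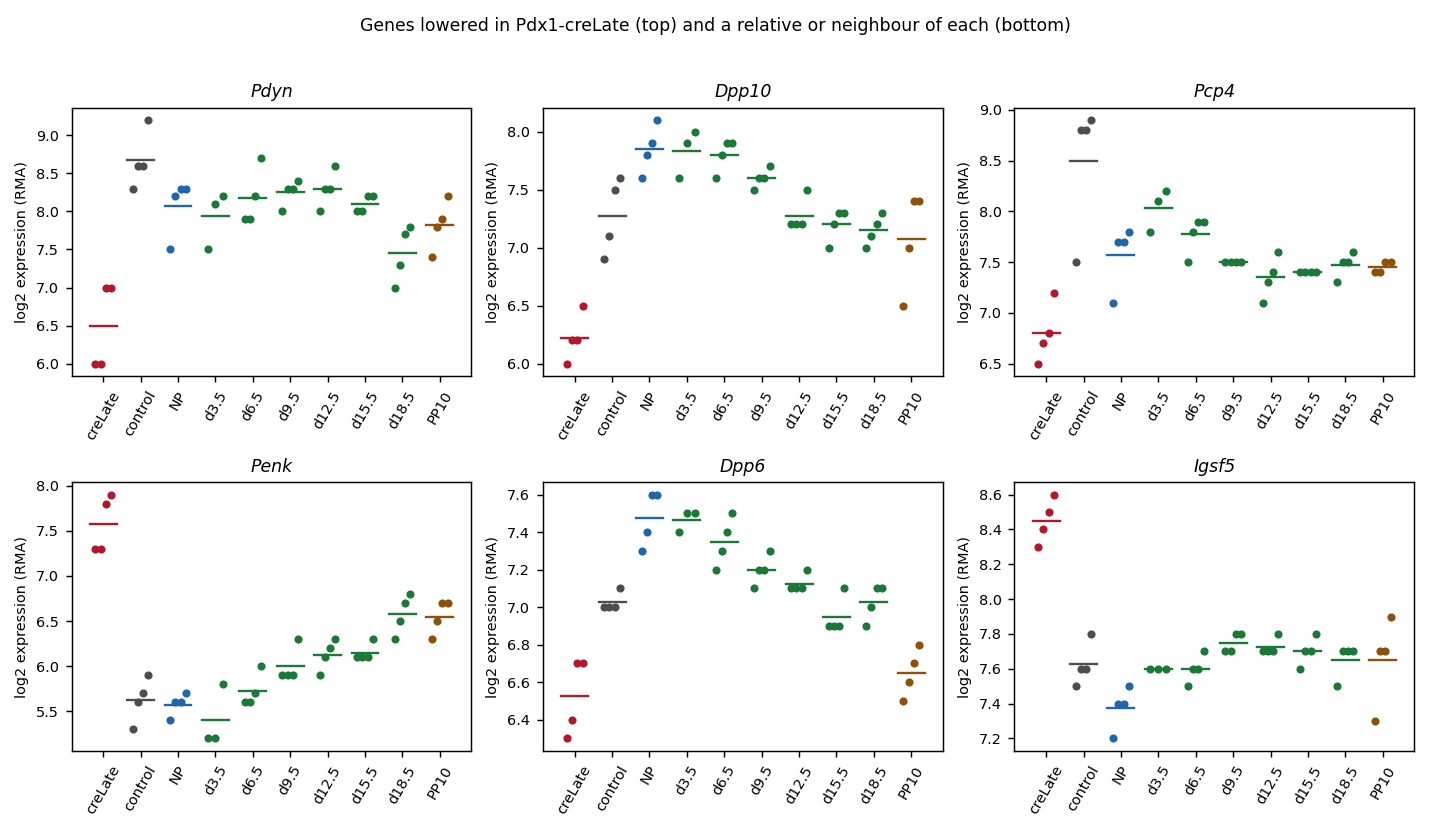
Log2 expression (RMA) by array and group, with group means as bars, for Pdyn, Dpp10 and Pcp4 (top) and for Penk, Dpp6 and Igsf5 (bottom), with groups as in the plot of the 8 genes and a separate vertical scale in each panel. Penk is at 7.3 to 7.9 in Pdx1-creLate against 5.3 to 5.9 in controls, opposite to Pdyn above it, Dpp6 is at 6.3 to 6.7 against 7.0 to 7.1, and Igsf5 is highest in Pdx1-creLate.

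The genes whose levels ran most like each member over the 39 arrays were found by Pearson's r, as a description, since the arrays share groups and the large transgenic difference. Each r is followed by its value over the 31 C57bl6/J arrays alone, which leave that difference out. For Dapl1 they were Hapln1 (r = 0.918, and 0.781 in C57bl6/J), Prom1 (0.916 and 0.698) and Ugt2b34 (0.909 and 0.545). For Ugt2b34 they were the potassium channel Kcnk16 (0.917 and 0.798), Dapl1 and Hspb8 (0.891 and 0.572). For Prom1 they were Dapl1, Ugt2b34 (0.877 and 0.23) and Hapln1 (0.877 and 0.617). The nearest to Pdyn were Ugt2b34 (0.829 and 0.354), Prom1 (0.828 and 0.292) and Dapl1 (0.825 and 0.48). Tat was most like Slc7a2 (0.908 and 0.877), one of the alpha-cell markers used here, Pcdh15 (0.906 and 0.88) and Slc12a7 (0.895 and 0.754). Taar1 was most like Kcnh5 (0.908 and 0.714), Car10 (0.908 and 0.683) and Pxylp1 (0.868 and 0.592). Pcp4 was most like Itgb8 (0.863 and 0.856), Pgf (0.851 and 0.659) and St6gal1 (0.846 and 0.594). Dpp10 was most like Etv1 (0.926 and 0.892), one of the pancreatic polypeptide-cell markers used here, Sfrp5 (0.911 and 0.857) and Pappa2 (0.906 and 0.824). The values for Pdyn and for Prom1 with Ugt2b34 were the ones that dropped to under 0.5 in C57bl6/J arrays.

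Among the 8 genes, the 28 pairs had r from 0.11 to 0.773 over the 31 C57bl6/J arrays (median 0.479), and 28 of 28 were above 0. After each group's mean was taken away, r over all 39 arrays was 0.01 to 0.615 (median 0.268), again above 0 in 28 of 28. The pairs share genes and are not independent, and no pairs of other genes were read beside them. These values are a description. Some arrays stood low or high in many of the 8. Non-pregnant replicate 4 was below the other non-pregnant arrays in 6 of the 8 genes, with a mean deviation of −0.29, and its SD over all genes was 1.76 against 1.83 to 1.84 on the other 3. Pdx1-creLate replicate 4 was lowest of its group in 5 genes (mean deviation −0.33) and post partum replicate 4 in 5 (−0.24), and post partum replicate 3 was highest in 5 (0.28). As every pregnancy comparison uses the non-pregnant mean, leaving out its replicate 4 brought the genes called lower to 3 at mid-pregnancy, 3 at day 12.5, 6 at day 15.5 and 5 at day 18.5. The share of all genes called lower without that array was not set beside these counts. Nothing particular to the 8 genes is read from these counts. What sets that array apart was not tested.

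**Figure D4:**
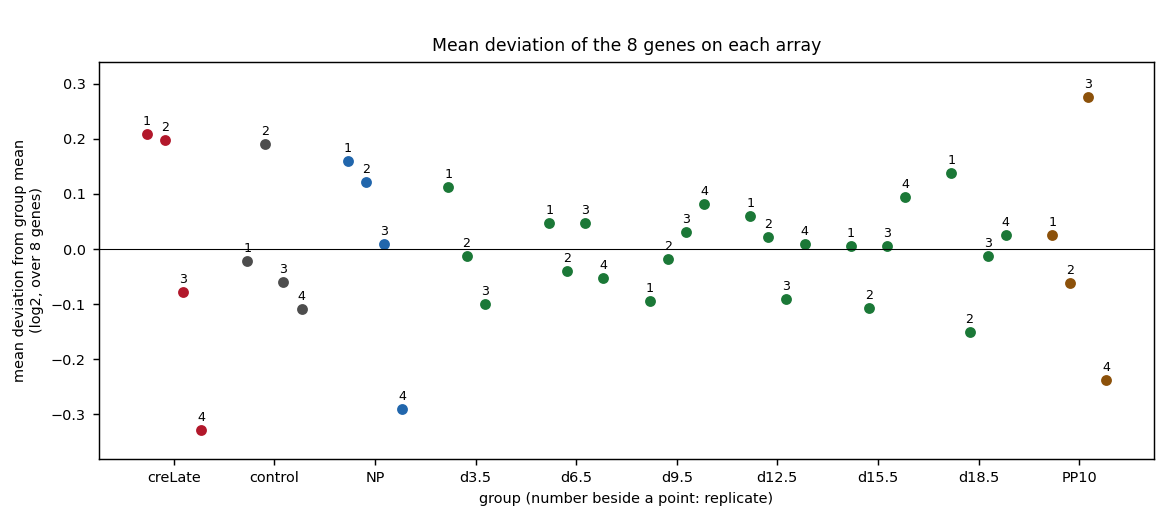
Mean deviation of the 8 genes from their group means (log2) on each array, with groups on the horizontal axis and replicate numbers beside the points. Non-pregnant replicate 4 (−0.29), Pdx1-creLate replicate 4 (−0.33) and post partum replicate 4 (−0.24) lie lowest, and post partum replicate 3 (0.28) highest.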

How the data were processed

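The deposited log2 values of 39 arrays were made by the authors with RMA in Affymetrix Expression Console, per the submitters' processing notes; its version is not given in the sources used here. Of 35556 probe sets, 21789 carry 1 gene symbol, 1621 several and 12146 none in the platform annotation; the highest-mean probe set per symbol gave 19938 genes, with no filter on low values. The 8 members and all lists were chosen with earlier results of these data known. Group means were fitted with limma 3.58.1 (R 4.3.3), two-sided, Benjamini-Hochberg adjusted over all genes at 0.05: 8 arrays for Pdx1-creLate against control, and 31 C57bl6/J arrays for pregnancy and post partum. The script was tested on simulated data. Positions and promoters are from RefSeq GRCm38. Tables and plots used Python 3.11.15 with pandas 2.3.3, numpy 2.4.6 and matplotlib 3.10.9. Besides the 8 members, up to 4 called genes of each list and comparison were named, and the 3 genes most like each member. The nearest measured genes on each side and the 10 largest falls among other genes were also named. Tph1, Xist, Uty, Eif2s3y, Kdm5d, Oprk1, Prom2 and the dim Ugt2b relatives were added. Alternatives were a filter on dim genes, centring on array medians, quantile normalization, array weights, the trend and robust options of eBayes, all 39 arrays, only the groups compared, a replicate block, the acinar marker mean as a covariate and leaving out each array. The number of arrays and signal over background limit precision.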

Additional observations from a re-analysis of the deposited data

Results flagged for a closer look

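Of 72 sets of 4 arrays examined, 1 for each gene and group, 7 held an array far from the others by Dixon's test, and chance flags about 1 in 20. Non-pregnant replicate 4 was low for Pdyn (7.5 against 8.2 to 8.3) and for Pcp4 (7.1 against 7.7 to 7.8). Control replicate 4 was low for Pcp4 (7.5 against 8.8 to 8.9). Dapl1 was low on day 9.5 replicate 1 (6.9 against 7.4 to 7.5). Ugt2b34 was low on day 12.5 replicate 4 (8.7 against 8.9 on the other 3), and Dpp10 was high on that array (7.5 against 7.2). Prom1 was high on day 6.5 replicate 3 (8.0 against 7.9), a gap of 1 rounding step.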

How the results depend on the processing

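Of 2152 results of the 8 genes under alternatives, 2087 kept direction and side of the threshold, 44 lost a call and 21 gained one; no called value changed sign, and of 1424 tested differences 68 changed sign without being called. The cause was not tested. Of the 8, the number called was 4 at mid-pregnancy and 1 at day 6.5 with the array SD as a covariate (added after seeing the data), 5 at day 15.5 with array weights, and 1 across birth with centring, with all 39 arrays or with only the groups compared. Leaving out an array gave 0 to 1 called at day 3.5, 2 to 6 at day 15.5, 2 to 5 at day 18.5 and 1 to 3 across birth. The share of all genes called is not set beside each of these counts, and nothing particular to the 8 genes is read from them. Of all genes, leaving out an array gave 1 to 173 calls at day 3.5, 48 to 221 at day 6.5, 1930 to 4587 at day 9.5, 1433 to 2504 at day 18.5, 1541 to 3004 post partum and 3553 to 7116 across birth. Calls at day 3.5, 9 in all, were 5 without dim genes, 15 with quantile normalization, 21 with trend and robust, 321 with array weights, 0 with all arrays or only the groups compared, and 3 with the acinar or SD covariate. Quantile normalization gave 2347 calls at day 9.5 (3864 before), 1979 across birth (6014) and 5099 among days (7697). Only the groups compared gave 45 at day 6.5 (124), 1015 at day 15.5 (1641) and 1220 post partum (2441), and all 39 arrays gave 2484 for the transgene (1313). The SD covariate gave 793 at day 9.5, 1174 at day 18.5, 12 across birth, 3982 at any day and 3687 among days. Higher and lower calls split 571 and 742 for the transgene (680 and 492 after centring), 1340 and 503 at mid-pregnancy (1201 and 999 after quantile normalization, 1493 and 229 after centring), 4 and 5 at day 3.5 (9 and 2), 100 and 24 at day 6.5 (105 and 65 by quantiles), 2321 and 1543 at day 9.5 (2504 and 764), 813 and 238 at day 12.5 (766 and 510 by quantiles), 737 and 904 at day 15.5 (936 and 326), 1712 and 498 at day 18.5 (1056 and 820 by quantiles, 1964 and 222) and 2355 and 3659 across birth (1533 and 4175). Replicate numbers did not pair the arrays: deviations of same-numbered arrays had a median r of 0.0195 over 105 C57bl6/J pairs and 0.0457 over 4 pairs of Pdx1-creLate and control. With a replicate block 934 genes were called for the transgene and 5 at day 3.5, and no call of the 8 genes changed.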
